A study of Mus musculus with 26 samples.

Results

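Thalamic neurons labelled from auditory cortex were set against thalamic neurons labelled from prefrontal cortex. Cells were taken by the cortical system that the authors' cell table gives for each, which made 380 auditory cells from 5 mice and 388 prefrontal cells from 4 mice, 768 of 1972 cells in the series. Label taken up in the cortex had reached the cell bodies by retrograde transport. Fluorescent neurons were sorted manually after slices had been treated with proteases and activity blockers, per the labels' protocols. Each cell was read as a 3' library with unique molecular identifiers (UMIs), so that 1 UMI counts 1 captured transcript. The cells of the motor, somatosensory and visual systems entered the filter on low counts, the scaling and the estimate of spread and of batch terms. Their levels are described for a few genes at the end. All animals were male, per the cell table. Auditory replicates 1 and 2 were in sequencing batch 1 and had an age of 104 in the cell table, replicates 3 and 4 were in batch 2 (age 81) and replicate 5 was in batch 3 (age 70). Prefrontal replicates 1 and 2 were in batch 1 (age 91), replicate 3 in batch 2 (age 77) and replicate 4 in batch 3 (age 70). The table gives age without a unit, and the sources used here give no strain, genotype or labelling agent. No animal gave cells of both systems (0 of 9), and each system covers 3 sort dates. Only auditory replicate 5 and prefrontal replicate 4, both in batch 3, shared a sort date. In batches 1 and 2 the systems were sorted on different dates and from animals of different age. There, sort date and age cannot be told apart from system, and the batch term does not separate them. The identifier of auditory replicate 5 was also on visual cells sorted on another date, and fits with all systems took its auditory and visual sums as independent. A label from a cortical area marks whichever thalamic nuclei project there, so a system is a mixture of cells and not 1 nucleus.

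Thalamocortical neurons are glutamatergic relay cells, and the nuclei that serve sensory cortex differ from midline, intralaminar and mediodorsal nuclei, which serve frontal cortex, in the layers their axons reach and in how they fire. Calb2 encodes calretinin, a calcium-binding protein found in many midline and higher-order nuclei of the thalamus. Necab1 encodes a neuronal calcium-binding protein and Tnnt1 a troponin subunit known from slow muscle. Some of these neurons also make neuropeptides, small secreted proteins that act on receptors coupled to G proteins.

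Raw UMI counts were summed per animal within a system, so the animal is the replicate. A cell held 20509 to 683775 UMIs, with a median of 79507 in auditory and 100024.5 in prefrontal cells, and the 9 sums held 4317156 to 20322775 UMIs. Every plate held cells of both systems (26 of 26). Levels are in CPM, which divides each gene's count by the total of its sum. Paired means are auditory first and then prefrontal, ± SD over 5 and 4 animals. Differences are auditory minus prefrontal on the log2 scale ± SE. A gene was called at a Benjamini-Hochberg adjusted p under 0.05 in edgeR's quasi-likelihood test with batch as a covariate. Where a group held 1 to 3 UMIs of a gene, the ratio of the pooled CPM stands in place of the fitted difference, with an interval that covers counting error only. Refits that leave out 1 of the 9 animals in turn are called leave-outs. Of 8 listed markers of thalamic glutamate neurons, which include Snap25 and Rbfox3 of neurons in general, 8 were above 0 in both systems. The list summed to 6883 to 10120 CPM in auditory and 5991 to 8555 CPM in prefrontal animals. This sum does not set relay cells apart from other neurons. Among defining markers of other cells, Slc32a1 and Dlx5 of GABA neurons, C1qa and Tmem119 of microglia and Cldn5 and Kcnj8 of vessels were at 0 in 9 of 9 sums. The whole list of 10 microglia markers summed to 108 to 149 CPM in auditory and 96.9 to 162 CPM in prefrontal animals, and the 11 vessel markers to 6.41 to 14.1 CPM and 1.46 to 3.59 CPM, which did not overlap. Their part in the results was not tested. Oligodendrocyte markers summed to 47.0 to 409 CPM in auditory and 42.4 to 114 CPM in prefrontal animals, and 10 auditory and 14 prefrontal cells held 3 or more markers of another cell type.

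Cells were placed in an anchor class by whichever of Calb2, Necab1 and Tnnt1 had the highest CPM. Calb2 was highest in 238 auditory and 175 prefrontal cells, Necab1 in 49 and 159, and Tnnt1 in 92 and 48. The share of Necab1 cells was 10.96, 10.5, 10.7, 17.6 and 15.1% in the 5 auditory animals and 21.9, 18.9, 42.4 and 73.8% in the 4 prefrontal animals. Every prefrontal animal lay above every auditory animal (means 12.97 ± 3.19% and 39.2 ± 25.3%, SD; two-sided exact permutation p = 0.016, the smallest that 5 against 4 animals allow, adjusted p = 0.048 over 3 classes). Within batch 1 the shares were 10.96 and 10.5% against 21.9 and 18.9%, within batch 2 they were 10.7 and 17.6% against 42.4%, and within batch 3 they were 15.1% against 73.8%. Calb2 cells made up 80.8, 72.4, 57.1, 37.8 and 65.8% of auditory and 71.9, 71.6, 36.5 and 17.5% of prefrontal animals, which overlapped (exact permutation p = 0.38, adjusted p = 0.38). Tnnt1 cells, with means of 23.98 ± 13.8% and 9.68 ± 7.23%, did not pass the test either (exact permutation p = 0.13, adjusted p = 0.19). The gene Calb2 itself did not pass the test between systems over all cells (1056 ± 378 against 1038 ± 720.0 CPM; log2 difference 0.05 ± 0.61, adjusted p = 0.98). With any 1 animal left out, the adjusted p of the Necab1 share was 0.054 to 0.11 and the difference of the means stayed between -14.8 and -33.0 percentage points.

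**Figure D1:**
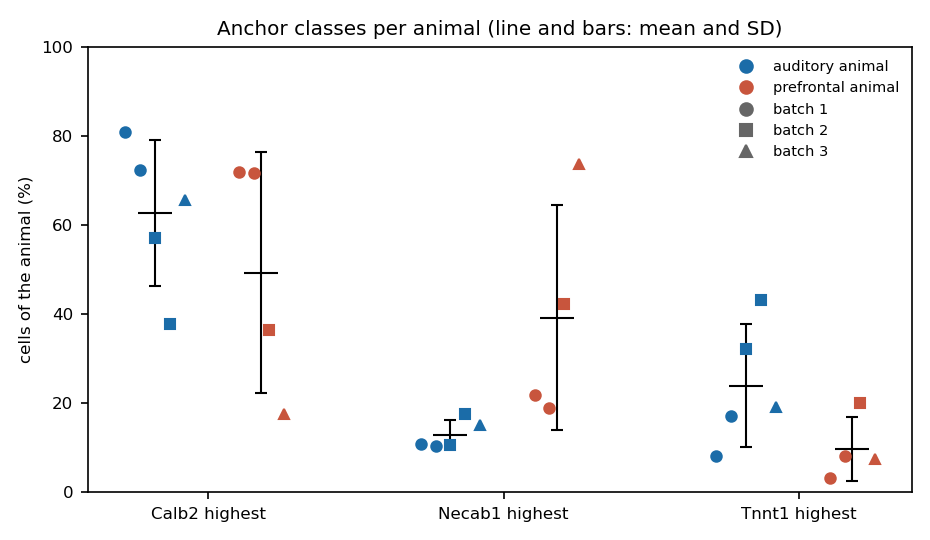
Share of cells in which Calb2, Necab1 or Tnnt1 was the highest anchor gene (y axis, percent of the animal's cells), with 1 point per animal, shape giving the sequencing batch, and the mean and SD in black. The 4 prefrontal animals lie above the 5 auditory animals for Necab1, from 18.9 to 73.8% against 10.5 to 17.6%, and the groups overlap for Calb2 and Tnnt1.

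Over all cells, 781 of 17211 genes tested were called (4.54%), 370 higher in auditory (2.15%) and 411 higher in prefrontal neurons (2.39%). In Calb2 cells alone, from 28 to 59 cells per auditory and 14 to 62 per prefrontal animal, 254 of 13921 genes were called (1.82%), 147 higher in auditory (1.06%) and 107 higher in prefrontal neurons (0.769%). The animals of the systems did not overlap for 5.18% of genes over all cells, with auditory animals above for 2.43% and prefrontal animals above for 2.75%, and for 7.35% in Calb2 cells, with 4.2% and 3.15%. Of these 254 genes, 208 were also called over all cells, which is 81.9% of the Calb2 calls and 26.6% of the calls over all cells. The calls share cells, so this overlap is no independent check. In a sum, fewer cells that make a transcript and less of it per cell cannot be told apart, so shares of cells are given beside the main genes. The batches carried these counts unevenly: without batch 1, which holds 4 of the 9 animals, 100 genes were called over all cells and 26 in Calb2 cells, without batch 2 they were 365 and 74, and without batch 3 they were 492 and 178. Without prefrontal replicate 2, 432 genes were called over all cells and 115 in Calb2 cells, and the other leave-outs gave 523 to 811 and 118 to 200. Of 86 calls over all cells on genes described here, 64 were lost without batch 1, and of 70 such calls in Calb2 cells 58 were lost. Within batch 1, 2 or 3 alone, 192, 21 and 37 genes passed. Batch 2 holds 1 prefrontal animal and batch 3 holds 1 animal of each system, so in these fits a lone animal was assumed to vary like the animals of the other systems in its batch. Of the lists of neuronal genes described next, between 4.76% (amine and acetylcholine receptors) and 50.0% (transcription factors) of the genes tested were called over all cells, against 4.54% of all genes. In Calb2 cells the shares ran from 0% (amine and acetylcholine receptors, immediate early genes) to 58.3% (neuropeptide precursors), against 1.82%. The lists were chosen with earlier results of these data known. Shares above those of all genes are therefore no test of the lists.

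**Figure D2:**
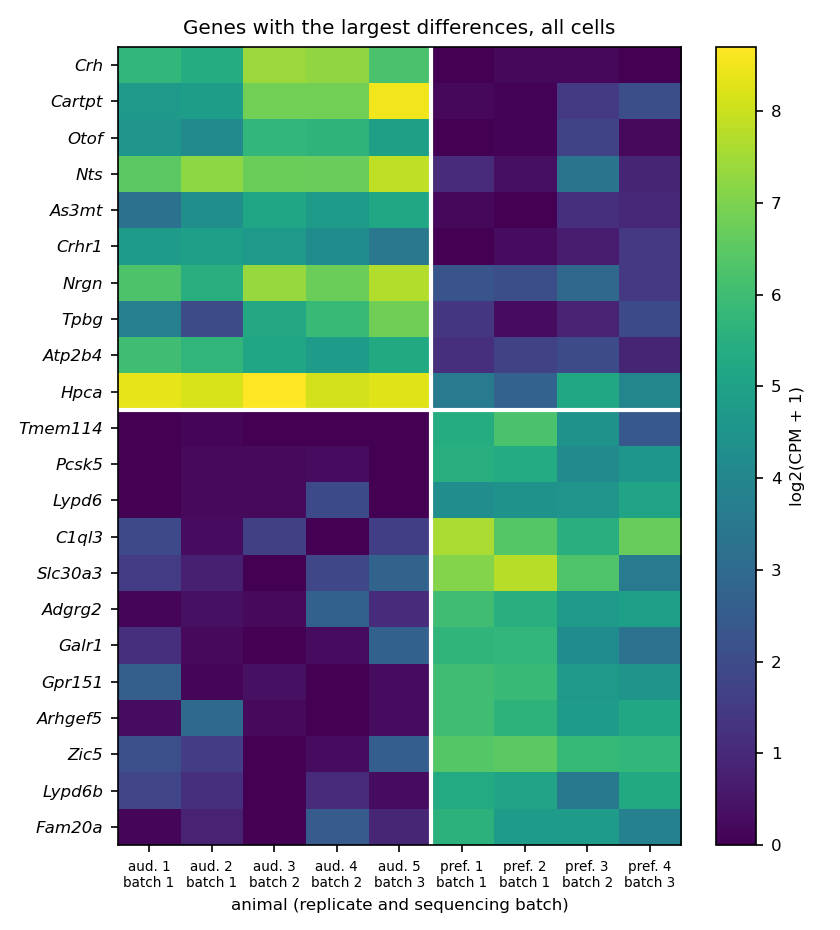
Level of 22 genes among those with the largest called differences over all cells, as log2(CPM + 1) in each animal (columns, auditory left of the white line, prefrontal right). The upper 10 genes are higher in all 5 auditory animals than in any prefrontal animal, and the lower 12 the other way round. The genes were picked by their called difference, so the lack of overlap is no further result. Of all genes tested over all cells, 5.18% did not overlap.

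Among neuropeptide precursors, most of the genes called were higher in auditory neurons. Of 13 tested, 5 were higher in auditory neurons (Crh, Cartpt, Nts, Adcyap1 and Cck), 1 was higher in prefrontal neurons (Gal) and 7 did not pass, and the median difference of the list was 1.498 against -0.03 over all genes. In Calb2 cells 6 of 12 were higher in auditory neurons, with Grp added, 1 was lower (Gal) and 5 did not pass. The shares called were 46.15% over all cells and 58.3% in Calb2 cells, against 4.54 and 1.82% of all genes. Nts encodes neurotensin, a peptide that acts on dopamine circuits and body temperature. In Calb2 cells Nts stood at 110.0, 202, 172, 275 and 349 CPM in auditory and 1.34, 0.199, 23.6 and 1.03 CPM in prefrontal animals. All 5 auditory animals lay above all 4 prefrontal animals (log2 difference 5.70 ± 0.88, adjusted p = 0.0023). Without batch 1, Nts lost its call in Calb2 cells (log2 difference 4.32, adjusted p = 0.12), and within the 3 batches over all cells its difference was 7.66, 3.48 and 8.08. Cartpt, the precursor of the CART peptides known from feeding and reward circuits, stood at 30.6, 37.0, 185, 303 and 551 CPM in auditory and 0.191, 0.0994, 4.70 and 8.25 CPM in prefrontal animals in the same cells. The lowest auditory animal lay well above the highest prefrontal animal (log2 difference 6.27 ± 0.55, adjusted p = 4.6e-06).

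Crh encodes corticotropin-releasing hormone, the peptide that starts the endocrine stress response. Its level in Calb2 cells was 65.5, 51.8, 284, 396 and 106 CPM in auditory and 0, 0.199, 0.276 and 0 CPM in prefrontal animals. The highest prefrontal value was far below the lowest auditory value (log2 difference 9.35 ± 1.23, adjusted p = 0.00075), and over all cells 5 of 388 prefrontal cells held any UMI of Crh against 62 of 380 auditory cells. With each cell thinned to 20000 UMIs, 13.9 ± 2.29% of auditory and 0.147 ± 0.294% of prefrontal cells held Crh (mean ± SD over animals), and for Nts the shares were 16.7 ± 9.42% and 1.14 ± 0.792%. Unthinned, 18.4% of auditory and 3.87% of prefrontal cells held Nts. Grp, gastrin-releasing peptide, gave 55.8, 8.43, 242, 21.1 and 185 CPM in auditory and 0, 0, 0.138 and 0 CPM in prefrontal animals in Calb2 cells. The ratio for Grp was 1814 from 1913 UMIs against 1 UMI (95% exact counting interval 325 to 71682, adjusted p = 0.00039). A single cell held 44.1% of the auditory UMIs of Grp, and of its prefrontal UMIs 65.2% lay in the authors' prefrontal cluster 3, where 0.885% of 113 cells held any, so the ratio rests on few cells and on the class they were placed in. Over all cells Grp overlapped between the systems and was not called (log2 difference 2.97 ± 1.123, adjusted p = 0.14), and 14 auditory and 5 prefrontal cells held it. Adcyap1, the precursor of PACAP, was at 93.2 ± 33.5 against 12.7 ± 11.03 CPM over all cells (log2 difference 3.04 ± 0.63, adjusted p = 0.0072). Cck, the precursor of cholecystokinin, differed less, at 1215 ± 319 against 862 ± 387 CPM (log2 difference 0.45 ± 0.13, adjusted p = 0.049), and the groups overlapped. Cck lost its call over all cells without any 1 of the 9 animals (adjusted p up to 0.17).

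Gal, the precursor of galanin, went the other way. It reached 7.44, 6.70, 5.02, 2.19 and 1.62 CPM in auditory and 124, 91.4, 26.4 and 288 CPM in prefrontal animals over all cells, so that the lowest prefrontal animal was above the highest auditory animal (log2 difference -4.26 ± 0.63, adjusted p = 0.00039). Transcripts of Galr1, an inhibitory receptor for galanin, were higher in the same system, at 1.26, 0.156, 0, 0.219 and 5.56 CPM in auditory and 50.7, 53.8, 17.7 and 8.99 CPM in prefrontal animals. Galr1 differed by -5.28 ± 0.95 log2 (adjusted p = 0.0023). Crhr1, which encodes a receptor for Crh, was higher in auditory neurons, at 26.1, 29.3, 25.3, 17.8 and 10.2 CPM in auditory and 0, 0.220, 0.590 and 1.70 CPM in prefrontal animals. Crhr1 differed by 5.12 ± 0.70 log2 (adjusted p = 0.00018). In cells thinned to 20000 UMIs, Galr1 was held by 17.5 ± 10.1% of prefrontal and 0.822 ± 1.23% of auditory cells, and Crhr1 by 20.8 ± 4.63% of auditory and 0.625 ± 1.25% of prefrontal cells. Among 18 opioid, cannabinoid and peptide receptors tested, Crhr1 was higher in auditory neurons, Galr1 and Cnr1 were higher in prefrontal neurons and 15 did not pass. Cnr1, the cannabinoid receptor of the brain, was at 2.66 ± 2.02 against 37.8 ± 21.2 CPM (log2 difference -3.88 ± 1.00, adjusted p = 0.027). Oxtr, the oxytocin receptor, was named by the size of its difference in Calb2 cells, at 0.140, 0, 0, 0 and 0 CPM in auditory and 10.7, 21.3, 14.4 and 44.4 CPM in prefrontal animals. The ratio for Oxtr was 439.8 from 417 UMIs against 1 UMI (95% exact counting interval 78.5 to 17412, adjusted p = 0.012). P2ry1, a receptor for ADP, was higher in auditory Calb2 cells (26.2 ± 12.1 against 0.228 ± 0.265 CPM; log2 difference 6.35 ± 1.33, adjusted p = 0.015). Of 21 amine and acetylcholine receptors, 1 was called over all cells, the muscarinic receptor Chrm1, at 12.6 ± 10.3 against 0.0123 ± 0.0246 CPM (ratio 455 from 357 UMIs against 1 UMI, 95% exact counting interval 81.1 to 18017, adjusted p = 0.0076), with the 4 prefrontal sums all below the 5 auditory sums. In Calb2 cells, of 18 tested, 0 were called in edgeR, 3 in DESeq2 and 4 had an unadjusted edgeR p under 0.05, and Chrm1, at 0 in all 4 prefrontal sums, had an adjusted p of 0.052 in edgeR. Cnr1 lost its call over all cells without auditory replicate 2, 3, 5 or prefrontal replicate 1, 2, 3 (adjusted p up to 0.11). Oxtr lost its call in Calb2 cells without auditory replicate 1 or prefrontal replicate 3, 4 (adjusted p up to 0.13). P2ry1 lost its call in Calb2 cells without auditory replicate 2, 5 or prefrontal replicate 1, 3 (adjusted p up to 0.081). Chrm1 was not called over all cells without prefrontal replicate 3 (adjusted p = 0.057).

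The auditory peptides lay mainly in 1 of the authors' clusters. Auditory cluster 3, 63 of 380 auditory cells, held 96.0% of the auditory UMIs of Nts, 93.5% of Cartpt, 75.5% of Crh, 82.7% of Adcyap1 and all of the UMIs of Grp. Its cells were Calb2 cells in 61 of 63 cases, and it was present in all 5 animals with 8, 6, 14, 11 and 24 cells. In that cluster Nts stood at 842 CPM, against 3.13 and 6.76 CPM in the other auditory clusters. With its cells removed, the auditory mean over all cells was 6.56 ± 4.68 CPM for Nts, 7.51 ± 6.03 CPM for Cartpt and 23.2 ± 9.78 CPM for Crh, beside prefrontal means of 2.84 ± 4.25, 1.30 ± 1.501 and 0.0735 ± 0.0849 CPM. Crhr1 was spread otherwise, with 3.84% of its auditory UMIs in cluster 3 and 35.1 CPM in cluster 2. Galanin transcripts were highest in prefrontal clusters 3 and 4, at 116 and 246 CPM. Clusters 1 and 2 held 1.62 and 11.2 CPM. Prefrontal cluster 3 came from replicates 1 and 2, with 52 and 61 cells and 0 from the others. Cluster 4 held 2, 1, 45 and 49 cells of replicates 1 to 4, so these 2 clusters went with the sequencing batch. Since the authors made the clusters from these cells, cluster levels are descriptions with no test.

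Gal, Crhr1 and Lypd6 are shown by the 250 bases before their RefSeq transcription start, 1 auditory and 2 prefrontal genes whose windows hold no exon annotated in GENCODE M21. Sequences are from RefSeq on GRCm38.p6, 5' to 3' on the gene's own strand, each upstream of a protein-coding gene. Gal lies at chr19:3414545-3414794 on the minus strand, Crhr1 at chr11:104132531-104132780 on the plus strand and Lypd6, a gene of synapse organization described next, at chr2:50066179-50066428 on the plus strand. The windows are 62.4, 74.8 and 70.4% G or C. TGACGTCA, the cAMP response element, its relaxed form TGACNTCA, which covers every match of the first, and TATAAA were searched on both strands, and 0 of the 3 windows hold any of them, so no letters are in capitals. Of 32851 windows of this length, 1.55% hold TGACGTCA, 7.49% the relaxed form and 12.4% TATAAA.
Gal: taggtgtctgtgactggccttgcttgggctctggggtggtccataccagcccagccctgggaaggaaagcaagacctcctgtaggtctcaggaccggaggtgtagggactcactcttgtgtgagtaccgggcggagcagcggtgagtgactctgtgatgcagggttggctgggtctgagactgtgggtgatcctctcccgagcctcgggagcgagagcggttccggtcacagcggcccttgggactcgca
Crhr1: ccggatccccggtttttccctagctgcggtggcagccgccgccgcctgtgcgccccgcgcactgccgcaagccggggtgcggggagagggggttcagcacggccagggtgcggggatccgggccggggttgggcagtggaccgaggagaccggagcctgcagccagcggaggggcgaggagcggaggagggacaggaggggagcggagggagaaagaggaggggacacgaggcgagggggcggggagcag
Lypd6: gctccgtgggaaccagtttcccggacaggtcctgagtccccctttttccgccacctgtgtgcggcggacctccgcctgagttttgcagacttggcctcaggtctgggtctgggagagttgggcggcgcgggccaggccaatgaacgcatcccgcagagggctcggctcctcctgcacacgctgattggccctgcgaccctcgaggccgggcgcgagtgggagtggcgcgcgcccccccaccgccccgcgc

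Synaptic organizers, secreted and membrane proteins that build and tune synapses, were split between the systems. Of 39 tested over all cells, 10 were higher in auditory and 6 higher in prefrontal neurons, and 23 did not pass; in Calb2 cells the counts were 6, 4 and 29. That is 41.0% called over all cells and 25.6% in Calb2 cells, against 4.54 and 1.82% of all genes. C1ql3 encodes a secreted C1q-like protein that binds receptors of the adhesion class at excitatory synapses. In Calb2 cells C1ql3 stood at 3.36, 0.316, 0.832, 0 and 2.81 CPM in auditory and 231, 103, 107 and 236 CPM in prefrontal animals. It was at or below 3.36 CPM in auditory animals and at or above 103 CPM in prefrontal animals (log2 difference -6.74 ± 0.70, adjusted p = 8.9e-05), and it was called without each of the 3 batches (log2 difference -6.48 to -6.95). In cells thinned to 20000 UMIs, 49.3 ± 13.3% of prefrontal and 1.26 ± 1.46% of auditory cells held it (unthinned, 221 of 388 and 11 of 380 cells). Nptxr, the receptor of neuronal pentraxins, gave 60.4, 55.2, 64.9, 68.2 and 43.2 CPM in auditory and 971, 787, 759.8 and 223 CPM in prefrontal animals in Calb2 cells. Its auditory values kept to a narrow range below all prefrontal values (log2 difference -3.52 ± 0.37, adjusted p = 2.7e-05). A pentraxin ligand, Nptx1, was higher in auditory Calb2 cells, at 16.7 ± 9.56 against 0.128 ± 0.196 CPM (log2 difference 6.21 ± 1.45, adjusted p = 0.030). Lypd6 and Lypd6b, small membrane-bound proteins that modulate nicotinic receptors, were both higher in prefrontal neurons over all cells, at 0.634 ± 1.24 against 23.5 ± 6.31 CPM (log2 difference -6.71 ± 1.21, adjusted p = 0.0025) and at 1.03 ± 1.00 against 30.1 ± 13.4 CPM (log2 difference -4.90 ± 1.20, adjusted p = 0.020). Nptx1 lost its call in Calb2 cells without any 1 of the 9 animals (adjusted p up to 0.13). Lypd6b lost its call over all cells without prefrontal replicate 1, 2, 4 (adjusted p up to 0.057).

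Cbln2, a secreted cerebellin that bridges neurexins to postsynaptic receptors, was higher in auditory Calb2 cells (248.7 ± 83.6 against 23.7 ± 17.4 CPM; log2 difference 3.51 ± 0.78, adjusted p = 0.022). Its relative Cbln1 was higher in prefrontal neurons over all cells (2.42 ± 1.33 against 18.98 ± 9.17 CPM; log2 difference -2.91 ± 0.67, adjusted p = 0.015) and did not pass in Calb2 cells (log2 difference -2.15 ± 1.14, adjusted p = 0.48). Nrxn3, a presynaptic neurexin, stood at 470.4, 544, 598, 398 and 329 CPM in auditory and 98.3, 90.6, 150.4 and 119.7 CPM in prefrontal animals in Calb2 cells. Auditory animals were above prefrontal animals with no overlap (log2 difference 1.98 ± 0.22, adjusted p = 2.8e-05). Cntn5, an adhesion molecule of the contactin family, was higher in auditory Calb2 cells (70.4 ± 19.9 against 25.7 ± 8.22 CPM; log2 difference 1.39 ± 0.31, adjusted p = 0.023). Cbln2 lost its call in Calb2 cells without auditory replicate 5 or prefrontal replicate 1, 2, 4 (adjusted p up to 0.076). Cntn5 lost its call in Calb2 cells without auditory replicate 1, 3, 5 or prefrontal replicate 1, 2, 3 (adjusted p up to 0.13).

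**Figure D3:**
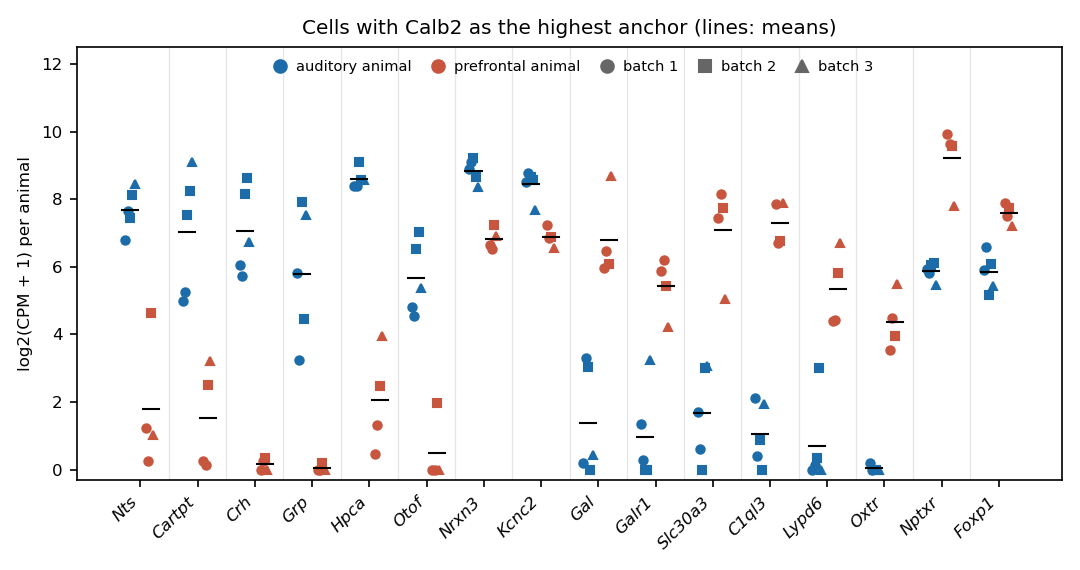
Level of 16 genes named in the text in cells whose highest anchor is Calb2, as log2(CPM + 1), with 1 point per animal, color giving the system, shape the sequencing batch and the line the mean. For 16 of 16 genes the auditory and prefrontal points do not overlap, with Nts to Kcnc2 higher in auditory animals and Gal to Foxp1 higher in prefrontal animals. The genes were picked from those called in these cells, so the lack of overlap is no further result. Of all genes tested in Calb2 cells, 7.35% did not overlap.

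Genes of the vesicle and of release changed in both directions. Of 32 tested, 5 were higher in auditory neurons (Unc13c, Cplx1, Syt1, Rims3 and Rims1), 5 were higher in prefrontal neurons (Slc30a3, Syt17, Syt4, Syt13 and Slc17a6) and 22 did not pass; in Calb2 cells the counts were 4, 3 and 25. Of this list 31.25% was called over all cells and 21.9% in Calb2 cells, against 4.54 and 1.82% of all genes. Slc30a3 encodes the zinc transporter of synaptic vesicles. Over all cells Slc30a3 stood at 1.95, 0.701, 0, 2.63 and 5.79 CPM in auditory and 135, 216, 78.9 and 11.2 CPM in prefrontal animals. The prefrontal range ran from 11.2 to 216 CPM, above the highest auditory value of 5.79 CPM (log2 difference -5.52 ± 0.81, adjusted p = 0.00036). Prefrontal replicate 4, which has the fewest Calb2 cells, gave the lowest of the 4 values, and within batch 3, 1 animal against 1, the log2 difference was -0.95, beside -7.13 in batch 1 and -6.03 in batch 2; without batch 1 it was -4.05 (adjusted p = 0.15). Among Calb2 cells alone the means were 175 ± 105 CPM in prefrontal and 3.44 ± 3.55 CPM in auditory animals (log2 difference -5.96 ± 0.93, adjusted p = 0.0023). Thinned shares of cells with Slc30a3 were 31.8 ± 20.6% in prefrontal and 1.90 ± 1.57% in auditory animals. Slc30a3 was not called in Calb2 cells without prefrontal replicate 3 (adjusted p = 0.055).

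Syt1, the fast calcium sensor of release, was at 2268, 1776, 2114, 1822 and 1618 CPM in auditory and 1057, 769.9, 799 and 923 CPM in prefrontal animals in Calb2 cells, with no overlap. Syt1 differed by 1.08 ± 0.15 log2 (adjusted p = 0.00049). Cplx1, a complexin that clamps and drives release, was likewise higher in auditory Calb2 cells (496 ± 169 against 125 ± 52.3 CPM; log2 difference 1.96 ± 0.36, adjusted p = 0.0059), and so was its relative Cplx2 (log2 difference 3.06 ± 0.75, adjusted p = 0.039). Syt17 and Syt4, synaptotagmins with roles in trafficking, were higher in prefrontal neurons over all cells, Syt17 at 26.9 ± 8.46 against 155 ± 42.9 CPM (log2 difference -2.56 ± 0.46, adjusted p = 0.0023) and Syt4 at 360.4 ± 20.9 against 600.0 ± 44.3 CPM (log2 difference -0.74 ± 0.12, adjusted p = 0.0014). Slc17a6, the vesicular glutamate transporter of thalamic relay cells, differed slightly over all cells (721 ± 79.4 against 899 ± 119.5 CPM; log2 difference -0.31 ± 0.08, adjusted p = 0.027), with overlap, and did not pass in Calb2 cells (adjusted p = 0.19). The other transporter, Slc17a7, did not pass over all cells (log2 difference 0.37 ± 0.41, adjusted p = 0.70). Otof encodes otoferlin, a calcium sensor of release best known from inner hair cells. It gave 22.2, 16.5, 53.0, 49.4 and 29.6 CPM in auditory and 0, 0.0732, 2.41 and 0.170 CPM in prefrontal animals over all cells. Otof differed by 5.85 ± 1.07 log2 (adjusted p = 0.0028), and 17.9% of auditory and 2.06% of prefrontal cells held a UMI of it. Cplx2 lost its call in Calb2 cells without auditory replicate 1, 3, 4, 5 or prefrontal replicate 1, 2, 3, 4 (adjusted p up to 0.19). Slc17a6 lost its call over all cells without auditory replicate 4, 5 or prefrontal replicate 1, 2 (adjusted p up to 0.087).

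Among 21 calcium-binding proteins and calmodulin partners, 4 were higher in auditory neurons (Nrgn, Hpca, Camk2a and Camk2b), 1 was higher in prefrontal neurons (Hpcal4) and 16 did not pass; 3, 0 and 16 of 19 did so in Calb2 cells. The share called was 23.8% over all cells and 15.8% in Calb2 cells, against 4.54 and 1.82% of all genes. Hpca encodes hippocalcin, a calcium sensor of the neuron-specific recoverin family. In Calb2 cells Hpca stood at 334, 336, 549, 381 and 376 CPM in auditory and 0.382, 1.49, 4.56 and 14.4 CPM in prefrontal animals. The lowest auditory value was far above the highest prefrontal value, and the call held without each animal and each batch (log2 difference 7.04 ± 0.72, adjusted p = 2.7e-05; 5.88 to 7.56 without a batch). It was held by 78.3 ± 7.25% of auditory and 13.4 ± 8.20% of prefrontal cells after thinning, and auditory cluster 3 held 25.5% of its auditory UMIs. In prefrontal clusters 1 and 2 it stood at 42.5 and 44.7 CPM and in clusters 3 and 4 at 1.63 and 2.27 CPM, beside 226 to 542 CPM in the 3 auditory clusters. Nrgn, the postsynaptic calmodulin store neurogranin, gave 92.5, 58.5, 278, 281 and 297 CPM in auditory and 4.59, 4.47, 15.9 and 8.25 CPM in prefrontal animals in Calb2 cells. Nrgn differed by 4.26 ± 0.80 log2 (adjusted p = 0.0065), and cluster 3 held 76.3% of the auditory total. Camk2a, a kinase subunit of the postsynaptic density, was higher in auditory neurons over all cells, with overlap between the groups (150.4 ± 46.6 against 99.2 ± 35.5 CPM; log2 difference 0.60 ± 0.13, adjusted p = 0.0097). Hpcal4, a relative of hippocalcin, was higher in prefrontal neurons (53.4 ± 17.3 against 119 ± 63.1 CPM; log2 difference -1.03 ± 0.29, adjusted p = 0.048), with overlap. Hpcal4 lost its call over all cells without auditory replicate 1, 2, 3, 4 or prefrontal replicate 1, 2, 3 (adjusted p up to 0.16).

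Of 28 transcription factors of thalamic patterning and identity tested, 9 were higher in auditory neurons, 5 were higher in prefrontal neurons and 14 did not pass, which is 50.0% called against 4.54% of all genes; in Calb2 cells 6 were higher, 1 was lower and 20 did not pass. The Calb2 counts make 25.9% called, against 1.82% of all genes in those cells. Foxp1, a forkhead factor of neuronal differentiation, was called over all cells, in Calb2 cells and in Necab1 cells. In Calb2 cells Foxp1 stood at 58.6, 94.6, 34.7, 66.4 and 42.5 CPM in auditory and 234, 179, 213 and 145 CPM in prefrontal animals. Prefrontal animals were above auditory animals with no overlap (log2 difference -1.74 ± 0.34, adjusted p = 0.0094), and 68.7 ± 3.00% of prefrontal and 34.8 ± 10.0% of auditory cells held it after thinning. Zic5, a zinc finger factor named by its difference, gave 3.32, 2.03, 0, 0.219 and 5.10 CPM in auditory and 83.3, 90.3, 55.3 and 52.9 CPM in prefrontal animals over all cells. Zic5 differed by -5.12 ± 0.67 log2 (adjusted p = 0.00012), and its relative Zic4 was also higher in prefrontal neurons (36.4 ± 15.5 against 100.2 ± 50.6 CPM; log2 difference -1.56 ± 0.34, adjusted p = 0.0097). Bhlhe22, a basic helix-loop-helix factor, was at 26.01 ± 8.27 CPM in prefrontal and 0.0280 ± 0.0626 CPM in auditory Calb2 cells (ratio 609.6 from 578 UMIs against 1 UMI, 95% exact counting interval 109 to 24118, adjusted p = 0.0016). Lhx9, a LIM factor of early thalamus, was higher in prefrontal neurons (101 ± 27.9 against 191 ± 46.8 CPM; log2 difference -0.90 ± 0.16, adjusted p = 0.0022).

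On the auditory side, Rora, a nuclear receptor of thalamic relay neurons, stood at 1462, 1613, 1248, 1183 and 875 CPM in auditory and 581, 637, 642 and 620.1 CPM in prefrontal animals in Calb2 cells, with no overlap. Rora differed by 1.02 ± 0.17 log2 (adjusted p = 0.0023). Etv1, an ETS factor, was higher in auditory Calb2 cells (205 ± 47.7 against 61.1 ± 12.6 CPM; log2 difference 1.67 ± 0.27, adjusted p = 0.0022). Ebf1, a factor of neuronal differentiation, was at 34.3 ± 21.9 against 4.03 ± 5.64 CPM over all cells (log2 difference 3.85 ± 0.91, adjusted p = 0.017). Nr2f2 and Sox2, both early patterning factors, were also higher in auditory neurons over all cells (log2 difference 1.89 ± 0.33, adjusted p = 0.0019, and log2 difference 1.71 ± 0.34, adjusted p = 0.0058). Gbx2, which marks the developing thalamus as a whole, did not pass (289 ± 39.9 against 243 ± 12.4 CPM; log2 difference 0.16 ± 0.29, adjusted p = 0.83), whereas Tcf7l2, another pan-thalamic factor, was slightly higher in auditory neurons (1253 ± 215 against 913 ± 108 CPM; log2 difference 0.43 ± 0.12, adjusted p = 0.036). Ebf1 was not called over all cells without prefrontal replicate 2 (adjusted p = 0.071) or prefrontal replicate 3 (adjusted p = 0.056). Tcf7l2 lost its call over all cells without auditory replicate 1, 2, 3, 5 or prefrontal replicate 2, 3, 4 (adjusted p up to 0.11).

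Among genes of fast firing, 4 of 16 were higher in auditory neurons (Kcnab3, Kcnc2, Kcnc1 and Kcna2), 0 were lower and 12 did not pass. In Calb2 cells 2 of 16 were called, both higher, and the median of the list was 0.84 against 0.02 over all genes. Kcnc2, a Kv3 channel that shortens the action potential, gave 361, 437, 399, 377 and 206 CPM in auditory and 151, 115, 116 and 92.9 CPM in prefrontal animals in Calb2 cells. Kcnc2 differed by 1.53 ± 0.23 log2 (adjusted p = 0.00084). Its partner Kcnc1 was at 253 ± 55.9 against 104 ± 7.48 CPM in the same cells (log2 difference 1.25 ± 0.30, adjusted p = 0.034). Of 27 other potassium channel genes, 5 were higher in auditory and 1 in prefrontal neurons and 21 did not pass. Kcnk2, a leak channel, was at 27.5, 16.8, 35.97, 47.2 and 31.5 CPM in auditory and 4.13, 3.37, 6.45 and 5.6 CPM in prefrontal animals over all cells, with no overlap. Kcnk2 differed by 2.59 ± 0.35 log2 (adjusted p = 0.00016). Kcnq5, an M-type channel, was the prefrontal one (0.742 ± 1.27 against 17.5 ± 14.9 CPM; log2 difference -4.86 ± 1.07, adjusted p = 0.011). Of 19 calcium and HCN channel genes 2 were higher in auditory neurons, 1 was lower and 16 did not pass, with Cacna2d1, an auxiliary calcium channel subunit, at 221 ± 25.3 against 124 ± 27.7 CPM (log2 difference 0.77 ± 0.14, adjusted p = 0.0022). Kcnc1 lost its call in Calb2 cells without auditory replicate 1, 2, 3, 4, 5 or prefrontal replicate 1, 2, 3 (adjusted p up to 0.14). Kcnq5 was not called over all cells without prefrontal replicate 3 (adjusted p = 0.069).

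Receptors for glutamate and GABA were called in both directions. Of 15 AMPA receptor genes 0 were higher in auditory neurons, 2 were lower and 13 did not pass, of 18 other glutamate receptor genes the counts were 3, 2 and 13, and of 14 GABA receptor genes 2, 1 and 11. The shares called were 13.3, 27.8 and 21.4%, against 4.54% of all genes. Gsg1l, an auxiliary AMPA receptor subunit, was at 0.229, 0.156, 0.324, 0 and 0.463 CPM in auditory and 13.9, 16.7, 0.295 and 32.4 CPM in prefrontal animals over all cells. Gsg1l differed by -5.57 ± 0.86 log2 (adjusted p = 0.00058); prefrontal replicate 3 lay within the auditory range. Grin2b, an NMDA receptor subunit, was higher in auditory Calb2 cells (279 ± 64.5 against 140.4 ± 27.9 CPM; log2 difference 1.02 ± 0.16, adjusted p = 0.0012), and so was Grin2c (41.7 ± 31.1 against 9.38 ± 7.17 CPM; log2 difference 2.29 ± 0.37, adjusted p = 0.0019), which did not pass over all cells (adjusted p = 0.28). Metabotropic receptors parted, with Grm3 higher in auditory (9.14 ± 5.39 against 0.0738 ± 0.0852 CPM; log2 difference 6.73 ± 1.59, adjusted p = 0.017) and Grm2 higher in prefrontal neurons (33.8 ± 10.0 against 72.4 ± 27.3 CPM; log2 difference -1.10 ± 0.25, adjusted p = 0.013). The GABA-B subunit Gabbr2 gave 685, 636, 614, 595 and 307 CPM in auditory and 289, 259.6, 253 and 285 CPM in prefrontal animals in Calb2 cells. Gabbr2 differed by 0.99 ± 0.17 log2 (adjusted p = 0.0035), and the GABA-A subunit Gabrb1 was higher in prefrontal neurons over all cells (179.9 ± 18.98 against 289 ± 62.6 CPM; log2 difference -0.67 ± 0.13, adjusted p = 0.0049). Within batch 3 alone, 1 animal against 1, the difference of Gabbr2 over all cells turned to -0.13 ± 0.14. Grm3 was not called over all cells without prefrontal replicate 2 (adjusted p = 0.061) or prefrontal replicate 3 (adjusted p = 0.053). Grm2 was not called over all cells without prefrontal replicate 2 (adjusted p = 0.067).

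Of 48 axon guidance genes, 3 were higher in auditory neurons, 5 were higher in prefrontal neurons and 40 did not pass, which is 16.7% called against 4.54% of all genes. Sema6a, a transmembrane semaphorin, stood at 124, 129, 148, 160.0 and 79.2 CPM in auditory and 22.9, 16.2, 42.4 and 22.7 CPM in prefrontal animals over all cells, with no overlap. Sema6a differed by 2.20 ± 0.19 log2 (adjusted p = 1.7e-06). Sema6d, a relative, was higher in prefrontal Calb2 cells (3.86 ± 2.24 against 36.8 ± 13.8 CPM; log2 difference -3.26 ± 0.51, adjusted p = 0.0016), and so was Plxna2, a plexin receptor for semaphorins (14.4 ± 4.82 against 79.6 ± 38.1 CPM; log2 difference -2.54 ± 0.58, adjusted p = 0.028). Epha7 and Epha5, ephrin receptors that sort axons by position, were higher in prefrontal neurons over all cells (log2 difference -1.76 ± 0.28, adjusted p = 0.00080, and log2 difference -1.03 ± 0.22, adjusted p = 0.0081). Cadherins gave 4 higher in auditory neurons, 2 lower and 22 that did not pass of 28, with Pcdh7 at 113 ± 20.3 against 28.5 ± 13.3 CPM in Calb2 cells (log2 difference 2.06 ± 0.32, adjusted p = 0.0013) and Cdh12 at 59.2 ± 13.6 against 11.1 ± 2.36 CPM (log2 difference 2.30 ± 0.43, adjusted p = 0.0069). Of 20 matrix genes, 1 was higher in auditory neurons, 5 were higher in prefrontal neurons and 14 did not pass (30.0% called), with a list median of 0.016; in Calb2 cells 1 was higher (Spon1), 1 was lower (Fbln1) and 17 did not pass. Fbln1, a fibulin of elastic matrix, was at 20.3, 22.7, 4.70, 0.219 and 43.1 CPM in auditory and 158, 247, 113 and 104 CPM in prefrontal animals over all cells. Fbln1 differed by -3.47 ± 0.60 log2 (adjusted p = 0.0017). Spon1, the secreted adhesion protein F-spondin, was the auditory one, at 282, 184, 326, 282 and 256 CPM in auditory and 64.8, 22.4, 67.7 and 60.4 CPM in prefrontal animals. Spon1 differed by 2.25 ± 0.23 log2 (adjusted p = 1.2e-05). Plxna2 lost its call in Calb2 cells without auditory replicate 1, 2, 4, 5 or prefrontal replicate 3, 4 (adjusted p up to 0.11). Epha5 was not called over all cells without prefrontal replicate 3 (adjusted p = 0.061).

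Immediate early genes, which rise with neuronal activity, gave 1 of 18 higher in auditory neurons (Egr1, 89.5 ± 10.1 against 47.5 ± 11.54 CPM; log2 difference 0.89 ± 0.20, adjusted p = 0.011), 2 higher in prefrontal neurons and 15 that did not pass, with blockers of activity present during dissociation. Bdnf, a growth factor counted in that list, was higher in prefrontal neurons (83.9 ± 56.7 against 218 ± 25.2 CPM; log2 difference -1.57 ± 0.35, adjusted p = 0.013). In Calb2 cells, of 17 tested, 0 were called in edgeR, 1 in DESeq2 and 3 had an unadjusted edgeR p under 0.05. Other genes taken by size of difference were, on the prefrontal side, Tmem114, a membrane protein, at 0, 0.0779, 0, 0 and 0 CPM in auditory and 40.5, 72.7, 20.6 and 4.24 CPM in prefrontal animals. The ratio for Tmem114 was 1343 from 1711 UMIs against 1 UMI (95% exact counting interval 241 to 53069, adjusted p = 2.7e-05). Pcsk5, a proprotein convertase, was at 0, 0.156, 0.162, 0.219 and 0 CPM in auditory and 42.7, 40.0, 16.9 and 22.7 CPM in prefrontal animals. Pcsk5 differed by -8.12 ± 1.14 log2 (adjusted p = 0.00022). A single auditory cell held any UMI of Tmem114, against 81 of 388 prefrontal cells. Also named by the size of their differences over all cells were As3mt, Tpbg and Atp2b4 on the auditory side (log2 difference 5.33 ± 0.96, adjusted p = 0.0024; log2 difference 4.65 ± 1.23, adjusted p = 0.033; log2 difference 4.505 ± 0.99, adjusted p = 0.011) and Adgrg2, Arhgef5 and Fam20a on the prefrontal side (log2 difference -5.44 ± 0.98, adjusted p = 0.0024; log2 difference -5.18 ± 0.97, adjusted p = 0.0032; log2 difference -4.56 ± 0.97, adjusted p = 0.0085). On the auditory side, Gpc3, a cell-surface glypican, was at 48.9 ± 22.99 against 0.247 ± 0.292 CPM in Calb2 cells (log2 difference 7.42 ± 1.47, adjusted p = 0.0094), and Hbegf, a growth factor that binds the EGF receptor, at 47.1 ± 14.5 against 0.642 ± 0.981 CPM (log2 difference 5.86 ± 0.71, adjusted p = 0.00011). Ppp1r1b, the phosphatase inhibitor DARPP-32, was at 21.6 ± 5.91 against 0.104 ± 0.207 CPM in the same cells (ratio 164 from 518 UMIs against 3 UMIs, 95% exact counting interval 55.7 to 796, adjusted p = 0.018). Egr1 was not called over all cells without prefrontal replicate 3 (adjusted p = 0.077). Tpbg lost its call over all cells without auditory replicate 1, 4, 5 or prefrontal replicate 2, 3, 4 (adjusted p up to 0.25). Gpc3 was not called in Calb2 cells without auditory replicate 5 (adjusted p = 0.051). Ppp1r1b lost its call in Calb2 cells without auditory replicate 5 or prefrontal replicate 1, 2, 3 (adjusted p up to 0.090).

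**Figure D4:**
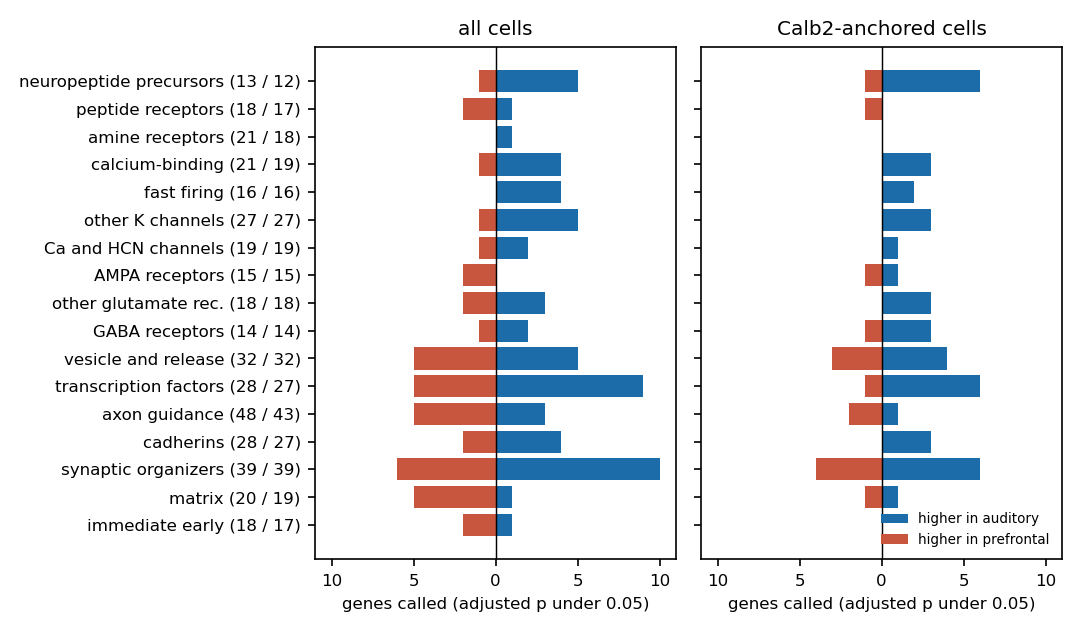
Genes called per list (x axis, number at an adjusted p under 0.05), with those higher in auditory neurons to the right and those higher in prefrontal neurons to the left, over all cells and in Calb2-anchored cells; numbers beside each list are the genes tested in each. Over all cells synaptic organizers give 10 and 6 and transcription factors 9 and 5, and in Calb2-anchored cells neuropeptide precursors give 6 and 1.

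Genes that serve as markers of other cells were also called. Slc1a2, a glutamate transporter of astrocytes also made by some neurons, was higher in prefrontal neurons over all cells, in Calb2 cells and in Necab1 cells (over all cells 203 ± 34.8 against 386 ± 66.8 CPM; log2 difference -0.91 ± 0.19, adjusted p = 0.0072), and 4 of 5 tested astrocyte markers were not called, with summed levels of 147 to 248.9 CPM in auditory and 303 to 441 CPM in prefrontal animals; without cells that held 3 or more markers of another type the Slc1a2 difference was -0.89 (adjusted p = 0.0083). The list of 8 GABA neuron markers summed to 40.8 to 117 CPM in auditory and 2.81 to 18.95 CPM in prefrontal animals, with the vesicular GABA transporter Slc32a1 at 0 in all sums. Without 4 auditory cells that the authors' cell table marks (0 prefrontal cells are marked; the meaning of the mark is not stated in the sources used here), 792 genes were called over all cells and 237 in Calb2 cells. Gpr151, an orphan receptor known from habenula, was at 5.15, 0.0779, 0.324, 0 and 0.232 CPM in auditory and 64.7, 56.8, 25.4 and 21.6 CPM in prefrontal animals. Gpr151 differed by -5.23 ± 1.04 log2 (adjusted p = 0.0055), with 3 of 4 tested habenula markers not called and the list at 1.95 to 17.8 CPM in auditory and 22.1 to 67.2 CPM in prefrontal animals. The part of such cells in these differences was not tested beyond these values.

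Necab1 cells gave a smaller set: 72 of 14169 genes were called (0.508%), 16 higher in auditory and 56 higher in prefrontal neurons, from 8 to 13 cells per auditory and 14 to 72 per prefrontal animal. The median difference over all genes was -0.18 in this comparison, against which its values should be read. Of these 72 genes, 57 were also called over all cells and 29 in Calb2 cells. Foxp1 was again higher in prefrontal neurons, at 30.3, 22.7, 139, 66.6 and 33.4 CPM in auditory and 327, 247, 231 and 168 CPM in prefrontal animals. Foxp1 differed by -2.52 ± 0.36 log2 (adjusted p = 0.0013). C1ql3 gave 0, 0, 0, 0 and 1.39 CPM in auditory and 58.5, 52.2, 16.5 and 84.7 CPM in prefrontal animals. The ratio for C1ql3 was 149.9 from 663 UMIs against 1 UMI (95% exact counting interval 26.8 to 5928, adjusted p = 0.0059). Sema6a gave 187, 209, 177, 221 and 103 CPM in auditory and 19.5, 34.5, 68.8 and 26.2 CPM in prefrontal animals. Sema6a differed by 2.18 ± 0.31 log2 (adjusted p = 0.0013). Crhr1 and Hpca were higher in auditory Necab1 cells (log2 difference 6.43 ± 1.22, adjusted p = 0.012, and log2 difference 3.90 ± 0.76, adjusted p = 0.016), and Cdh8, a cadherin, was higher in prefrontal ones at 5.88 ± 4.55 against 63.2 ± 17.3 CPM (log2 difference -3.42 ± 0.48, adjusted p = 0.0013). Of 10 neuropeptide precursors tested, 0 were called in edgeR and 4 had an unadjusted edgeR p under 0.05. Without prefrontal replicate 1, 2, 3 or 4 the count of 72 was 45, 29, 31 or 36, and without an auditory animal it was 72 to 107. Crhr1 was not called in Necab1 cells without prefrontal replicate 2 (adjusted p = 0.056) or prefrontal replicate 3 (adjusted p = 0.073). Hpca lost its call in Necab1 cells without auditory replicate 1 or prefrontal replicate 2, 4 (adjusted p up to 0.076).

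Whether the systems differed by unequal amounts in Calb2 and Necab1 cells was tested by the interaction of system and class, with each animal as a block, in the 9 animals. Of 14664 genes, 4 were called (0.0273%) and 761 had an unadjusted p under 0.05. These 4 genes, named after their values were seen, were Nefm, Arap2, Pcp4 and Prkcd, each with the greater auditory excess in Calb2 cells. Nefm encodes a neurofilament subunit of large axons. In Calb2 cells it stood at 405, 315, 599, 508 and 505 CPM in auditory and 200.4, 247, 232 and 172 CPM in prefrontal animals, and in Necab1 cells at 279, 187, 262, 225 and 191 CPM in auditory and 408, 368, 563 and 501 CPM in prefrontal animals. Auditory animals were thus above all prefrontal animals in Calb2 cells and below all of them in Necab1 cells (interaction 2.17 ± 0.28, adjusted p = 0.0021). Taken by class, the Calb2 difference did not pass (1.19 ± 0.40, adjusted p = 0.16), and the Necab1 difference did (-1.08 ± 0.19, adjusted p = 0.0078). Over all cells Nefm did not pass (log2 difference -0.21 ± 0.20, adjusted p = 0.64). Arap2, a regulator of small GTPases and actin, stood at 85.9, 100.2, 104, 79.9 and 52.7 CPM in auditory and 7.65, 9.34, 3.04 and 0 CPM in prefrontal animals in Calb2 cells and overlapped between systems in Necab1 cells (145 ± 68.8 against 104 ± 35.8 CPM; interaction 3.88 ± 0.61, adjusted p = 0.012). Pcp4, a calmodulin regulator, was at 1091 ± 324 against 441 ± 318 CPM in Calb2 cells and at 1771 ± 558 against 1601 ± 845 CPM in Necab1 cells (interaction 1.27 ± 0.20, adjusted p = 0.012). Prkcd, a kinase of relay neurons, was at 326 ± 127 against 174 ± 125 CPM in Calb2 and at 543 ± 202 against 871 ± 479 CPM in Necab1 cells, with overlap in both (interaction 1.87 ± 0.32, adjusted p = 0.029). Leaving out 1 animal kept the call of Nefm in 9 of 9 refits. Arap2 lost its call in the interaction without auditory replicate 3 or prefrontal replicate 1, 3 (adjusted p up to 0.12). Pcp4 lost its call in the interaction without auditory replicate 3 or prefrontal replicate 1, 3 (adjusted p up to 0.14). Prkcd lost its call in the interaction without auditory replicate 1, 2, 4, 5 or prefrontal replicate 1, 2, 3 (adjusted p up to 0.33). Nefm was not called in Necab1 cells without prefrontal replicate 3 (adjusted p = 0.055).

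**Figure D5:**
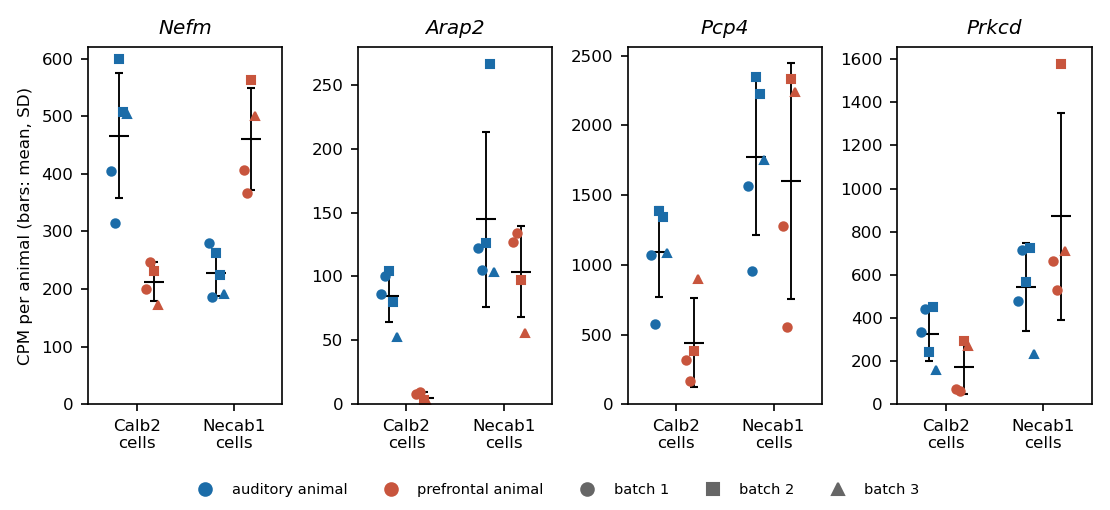
CPM of the 4 genes whose difference between systems depended on the anchor class, in Calb2- and Necab1-anchored cells, with 1 point per animal (color for system, shape for batch) and the mean and SD in black. For Nefm the auditory points lie above the prefrontal points in Calb2 cells (315 to 599 against 172 to 247 CPM) and below them in Necab1 cells (187 to 279 against 368 to 563 CPM).

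The motor, somatosensory and visual sums give some of these genes a wider setting. C1ql3 was at 2.07, 0.986 and 1.46 CPM in motor, somatosensory and visual sums, and Slc30a3 at 0.110, 0.0230 and 0.0491 CPM. Nts was at 0.204, 0.0328 and 0.484 CPM, beside 137 ± 58.6 CPM in auditory sums. Hpca was at 46.6 ± 36.9, 141 ± 48.8 and 128 ± 6.69 CPM, so its auditory level of 323 ± 56.2 CPM was the highest and its prefrontal level of 16.7 ± 13.02 CPM the lowest of the 5 means. Some genes called higher in auditory neurons were also high in motor, somatosensory and visual sums. In that order, Spon1 was at 234, 207 and 186 CPM and Sema6a at 92.6, 112 and 104.5 CPM. Cck was at 1167, 1809 and 1920 CPM. For Spon1, Sema6a and Cck the prefrontal mean was the lowest of the 5. These levels are a description and were not tested between those systems.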

How the data were processed

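Fluorescent neurons of 5 thalamocortical systems were sorted manually, per the labels' protocols, and sequenced singly; auditory and prefrontal neurons are compared here. The authors deposited UMI counts for each cell with no normalization. Per the submitters' processing notes, cutadapt 1.16, Picard 1.12, STAR 2.5.3 and mm10 were used. Annotation and strand use are not given in the sources used here, and overlapping or antisense genes cannot be told apart. The 90 spike-ins were left out of totals, no cell was removed, and no doublet caller was run.

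Counts were summed per animal within a system, over all cells (21 sums, at least 10 cells each) or over cells whose highest anchor was Calb2 (18 sums) or Necab1 (20 sums, at least 5 cells each). The test was the quasi-likelihood test of edgeR 4.0.16 (R 4.3.3), with filterByExpr, TMM, a trended dispersion, terms for system and sequencing batch, and Benjamini-Hochberg adjustment over all genes tested. Fits within anchor classes left out Tnnt1, Necab1 and Calb2, and the interaction fit (18 sums) had the animal as a block. Shares of anchor classes were compared by a two-sided exact permutation test over animals (scipy 1.17.1), adjusted over 3 classes. Shares of cells with a UMI were taken after thinning each cell to 20000 UMIs, and 0 cells were shallower. On simulated counts, 50 of 66 genes changed 4-fold and 34 of 67 changed 2-fold were recovered over all cells, 35 and 10 in Calb2 cells, and 23 and 5 in Necab1 cells. Of the genes called there, 3.03, 2.17 and 6.45% were unchanged ones. The simulation gave every sum the same mean profile, the fitted trend of spread and no batch effect. Recovery in the real sums may therefore be lower.

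Genes named by rule were the 12 with the largest called difference in each direction, over all cells and in Calb2 cells, with a mean of at least 10 CPM, leaving out gene models without a name; the others come from gene lists or are introduced where they appear. The systems compared and the lists were chosen with earlier results of these data known. Alternatives changed the dispersion, scaling, count filter, tool (DESeq2 1.42.0, limma 3.58.1 on log2 of the mean CPM per cell), batches, summing unit, anchor rule and cells used, or left out each animal. Promoters are from RefSeq, shown for genes without an annotated exon in the window, and the motif TGACNTCA was added after other promoter sequences were seen. A few genes that the rule or the lists named are not reported here.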

Additional observations from a re-analysis of the deposited data

Results flagged for a closer look

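For 24 of 200 groups of animals, the gap between 1 animal and the nearest other of its system passed Dixon's 95% critical value, in the level of a gene chosen by the rule, from the lists or for its interaction, over all cells. Chance marks about 1 in 20 groups of independent values, and the groups share animals. Where the other animals were all at 0 (Tmem114, Plpp2 and Chrm1), any UMI passes, and the values of Tmem114 and Chrm1 are 1 UMI each. Auditory replicate 1 stood below the other auditory animals for Hbegf (20.95 CPM, others 61.64 to 71.14 CPM). Auditory replicate 1 stood above the other auditory animals for Bhlhe22 (2.175 CPM, others 0 to 0.2195 CPM) and Gpr151 (5.151 CPM, others 0 to 0.3241 CPM). Auditory replicate 2 stood above the other auditory animals for Arhgef5 (7.092 CPM, others 0 to 0.2316 CPM), Tmem114 (0.07793 CPM, others at 0) and Unc5b (2.65 CPM, others 0 to 0.2289 CPM). Auditory replicate 4 stood above the other auditory animals for Adgrg2 (5.487 CPM, others 0.1145 to 1.158 CPM), Epha7 (49.38 CPM, others 14.54 to 20.89 CPM), Fam20a (4.609 CPM, others 0 to 0.9265 CPM), Lypd6 (2.853 CPM, others 0 to 0.162 CPM) and Plpp2 (0.6584 CPM, others at 0). Auditory replicate 5 stood below the other auditory animals for Cacna2d1 (177 CPM, others 222.2 to 239 CPM) and Gabbr2 (351.2 CPM, others 666.1 to 759.6 CPM). Auditory replicate 5 stood above the other auditory animals for Cartpt (367.4 CPM, others 25.07 to 114.6 CPM), Col12a1 (19.92 CPM, others 8.356 to 10.91 CPM), Galr1 (5.559 CPM, others 0 to 1.259 CPM) and Kcnq5 (3.011 CPM, others 0 to 0.3241 CPM). Prefrontal replicate 1 stood below the other prefrontal animals for Grin2c (22.45 CPM, others 48.17 to 50.4 CPM). Prefrontal replicate 2 stood below the other prefrontal animals for Spon1 (22.39 CPM, others 60.41 to 67.66 CPM). Prefrontal replicate 3 stood above the other prefrontal animals for Chrm1 (0.04921 CPM, others at 0), Gabbr2 (564.4 CPM, others 360.3 to 385.1 CPM), Nts (9.201 CPM, others 0.2927 to 1.034 CPM) and Otof (2.411 CPM, others 0 to 0.1697 CPM). Prefrontal replicate 4 stood above the other prefrontal animals for Ebf1 (12.39 CPM, others 0 to 1.976 CPM).

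For 4 genes the difference between the systems itself differed between Calb2 and Necab1 cells, by the interaction in edgeR's quasi-likelihood test. The difference of log2 differences was 2.165 for Nefm (adjusted p = 0.0021), 3.881 for Arap2 (adjusted p = 0.012), 1.275 for Pcp4 (adjusted p = 0.012) and 1.866 for Prkcd (adjusted p = 0.029). In each, auditory minus prefrontal was the larger in Calb2 cells. Every auditory animal was above every prefrontal animal in Calb2 cells for Nefm and for Arap2, and for Nefm every auditory animal was below every prefrontal animal in Necab1 cells. The groups overlapped in both classes for Pcp4 and Prkcd.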

How the results depend on the processing

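Within batch 3 alone, 1 animal against 1, Gabbr2 turned to -0.132 and Hpcal4 to 0.0467 (log2, all cells). The directions of other called genes are not counted here, since the same animals chose them. Over all cells, 1380 genes were called with 1 dispersion for all genes, 1220 with no filter on low counts, 1402 with DESeq2, 387 with sums per sort date and 330 with the auditory and prefrontal sums alone. They were 100, 365 and 492 without batch 1, 2 and 3, 192, 21 and 37 within each, and 432 to 811 over leave-outs; within batch 2, 28.6% of calls were higher in auditory neurons against 47.4%. In Calb2 cells, 1323 were called with 1 dispersion, 517 with no filter, 609 with DESeq2, 504 with these 2 systems alone, 123 with Calb2 at least 2 times each other anchor, 26 and 74 without batch 1 and 2, and 115 to 200 over leave-outs. Leave-outs gave 29 to 107 calls in Necab1 cells and, chosen after seeing the data, 1 to 6 for the interaction. The difference in Necab1 share was -33.03 to -14.75 points over leave-outs (adjusted p = 0.0536 to 0.107 by exact permutation, each unadjusted p being the smallest the refit allows). The causes were not tested. No paired analysis was possible because different animals carry the systems and their replicate numbers are only names. Fits within batch 2 and 3 have an arm of 1 animal, which limits them.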
